A study of Mus musculus with 2 samples.

Results

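The genes described are those of the proton pump of the lysosome and of the lysosomal membrane, measured cell by cell in the mouse dentate gyrus. Members were chosen by name: the genes of the V-ATPase (every column beginning Atp6v0 or Atp6v1, with Atp6ap1 and Atp6ap2) and Lamp1, Lamp2, Cd63, Cd68, Laptm4a, Laptm4b, Laptm5, Scarb2, Mcoln1, Tmem9, Tmem9b and Ctns. This gave 31 of the 17592 genes of the table, 19 of the V-ATPase and 12 of the lysosomal membrane. The series holds 1 library of C57BL/6 mice labelled old (16 months) and 1 labelled young (3 months), with no allele or treatment named for either. Dentate gyri were microdissected and dissociated with papain, cells that excluded propidium iodide were sorted, and 10x Genomics droplet libraries were made, which count the 3' ends of transcripts by unique molecular identifiers (UMIs). The number of animals behind each library is not given in the sources used here.

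The V-ATPase is a rotary enzyme. Its V1 sector, outside the membrane, hydrolyses ATP in a head of alternating A and B subunits and turns a central rotor. Its V0 sector, in the membrane, carries protons across through a ring of c-type subunits and a large a subunit, and peripheral stalks of E and G subunits hold the sectors together. The acid this makes inside the lysosome is needed by its hydrolases, and lysosomal transporters and channels pass the products of digestion and ions to the cytosol. Glycoproteins such as LAMP1 and LAMP2 line the inner face of the membrane. Many of these genes are known to carry the E-box CACGTG, within the longer CLEAR motif, near their start sites, where TFEB and its relatives bind. In brain, microglia are the resident phagocytes, and oligodendrocytes move much membrane through the endosomal and lysosomal system as they lay down myelin.

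The old library held 1430 cells and 7451506 UMIs, with a median of 3856 UMIs and 1771.5 genes per cell, and the young library held 2463 cells and 16217559 UMIs, with medians of 6663 and 1803. Of the old barcodes, 1401 (98.0%) were also in the young library, so the libraries share most of their brain cells and a comparison between them is not a comparison of ages. The classes were therefore described from the young rows, and their levels cannot be assigned to either age. Clusters built without the members were called after a cell type from fixed markers, as "-like". 7 classes had at least 30 young cells: microglia-like (362 cells), astrocyte-like (304), endothelial-like (129), pericyte-like (68), mature oligodendrocyte-like (79), oligodendrocyte precursor-like (48, called precursor-like below) and neuroblast or immature granule neuron-like (58, called neuroblast-like). The main cluster of each class met the criteria for every marker listed for its name, and no cluster was named mature granule neuron-like. Genes that led the microglia-like cluster included the immediate-early genes Atf3, Jun, Junb, Egr1, Zfp36 and Btg2 and the chemokine gene Ccl4 beside the marker Cx3cr1. Another 290 old and 1315 young cells lay in clusters with a median mitochondrial share below 1% and were left out of the classes. A further cluster of 69 old and 71 young cells, led by Ttr, Hbb-bs, S100a8 and S100a9, took no name and was also left out. With 1 library per age, and classes cut from the cells they describe, there is no test; intervals are 95% exact ones for counting error only.

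Of the 31 members, 25 were in the RefSeq promoter table (GRCm38.p6), which spans 250 bases before to 50 after each start site. The E-box CACGTG was in 6 of the 25 (24.0%), against 10.7% of the 12791 genes of the table that the libraries measured and 8.09% of all 27025. Its longer form TCACGTGA, which contains CACGTG, was in 4 of the 25 members (16.0%), against 1.88% and 1.12%. Both motifs read the same on both strands. The 6 promoters shown are those with the E-box. They belong to Lamp1, Atp6v0e, Atp6v0b and the catalytic head subunit Atp6v1a, which are called in a class below, to the ring-to-rotor subunit Atp6v0d1 and to the channel gene Mcoln1. The other called members with a listed promoter had no match: Laptm5, Cd68, Lamp2, Cd63, Laptm4a, Tmem9, Tmem9b, Atp6v0e2, Atp6ap1, Atp6ap2 and Scarb2. Each run is 170 bases on the gene's strand, 5′ to 3′, from 150 bases before the start site to 20 after it, with the E-box or its longer form in capitals.

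Atp6v0b, chr4:117887310-117887479 on the minus strand: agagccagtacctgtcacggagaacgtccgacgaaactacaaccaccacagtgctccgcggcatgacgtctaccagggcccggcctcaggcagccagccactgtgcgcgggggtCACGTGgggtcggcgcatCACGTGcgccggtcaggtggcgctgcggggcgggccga
Atp6v0d1, chr8:105566045-105566214 on the minus strand: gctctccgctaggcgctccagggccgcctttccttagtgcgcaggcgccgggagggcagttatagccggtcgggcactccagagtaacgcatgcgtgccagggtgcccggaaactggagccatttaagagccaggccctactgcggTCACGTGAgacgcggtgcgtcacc
Atp6v0e, chr17:26676246-26676415 on the plus strand: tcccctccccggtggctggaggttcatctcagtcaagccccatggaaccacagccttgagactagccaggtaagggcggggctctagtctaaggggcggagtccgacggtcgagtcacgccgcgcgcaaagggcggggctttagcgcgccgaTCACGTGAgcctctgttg
Atp6v1a, chr16:44139240-44139409 on the minus strand: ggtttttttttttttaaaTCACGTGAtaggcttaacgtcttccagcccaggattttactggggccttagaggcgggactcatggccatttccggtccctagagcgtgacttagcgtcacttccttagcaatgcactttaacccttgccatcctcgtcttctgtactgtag
Lamp1, chr8:13159011-13159180 on the plus strand: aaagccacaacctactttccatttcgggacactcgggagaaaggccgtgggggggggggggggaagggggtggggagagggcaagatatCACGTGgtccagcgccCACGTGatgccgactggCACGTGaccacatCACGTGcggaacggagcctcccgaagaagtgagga
Mcoln1, chr8:3500369-3500538 on the plus strand: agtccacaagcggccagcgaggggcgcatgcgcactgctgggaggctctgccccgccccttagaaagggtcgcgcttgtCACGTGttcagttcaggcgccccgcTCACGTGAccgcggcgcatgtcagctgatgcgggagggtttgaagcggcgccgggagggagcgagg

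In Lamp1, the 4 matches began at −61, −45, −28 and −15 relative to the start site. In Atp6v0b the 2 matches began at −36 and −18, and in Mcoln1 the 2 began at −71 and −45, the second with its flanking bases. The E-box inside the full form began at −131 in Atp6v1a, −3 in Atp6v0d1 and 4 in Atp6v0e. The RefSeq start sites are not always the outermost ones of GENCODE M21. A match describes the letters in this window and is not evidence of binding in these cells.

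**Figure D1:**
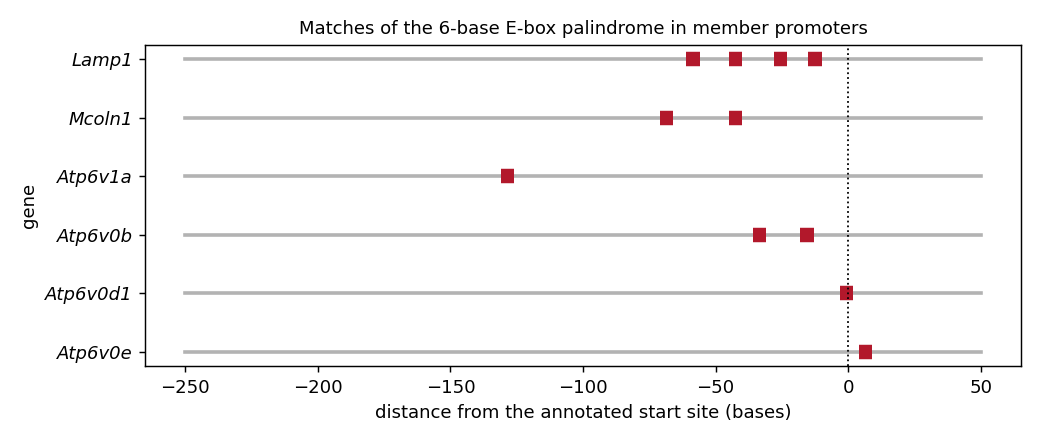
Positions of the E-box CACGTG in the promoters of 6 members, as distance in bases from the start site, with each gene on a row of its own. Lamp1 has 4 matches between −61 and −15, and the match of Atp6v1a lies farthest out, at −131.

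The level of a gene in a class is its summed UMIs per 10,000 summed UMIs of all genes in that class. It was set against the unweighted mean level of the other 6 classes, with 0.1 added to both, and a gene was called higher or lower in a class at a 2-fold difference. Levels were compared between classes and not between genes. Of the members, 28 had a mean level of at least 0.1 and entered this comparison, 16 of the V-ATPase and 12 of the lysosomal membrane; Atp6v1g2, Atp6v0c and Atp6v0a4 did not. Members of the membrane group varied more between classes than the pump. The log2 ratio of a member's highest to its lowest class had a median of 2.56 over the 12 lysosomal membrane members and 1.37 over the 16 V-ATPase members, against 1.87 over 10231 genes. In the heat map of levels, strong contrasts stand in a few rows, and most pump rows are even.

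**Figure D2:**
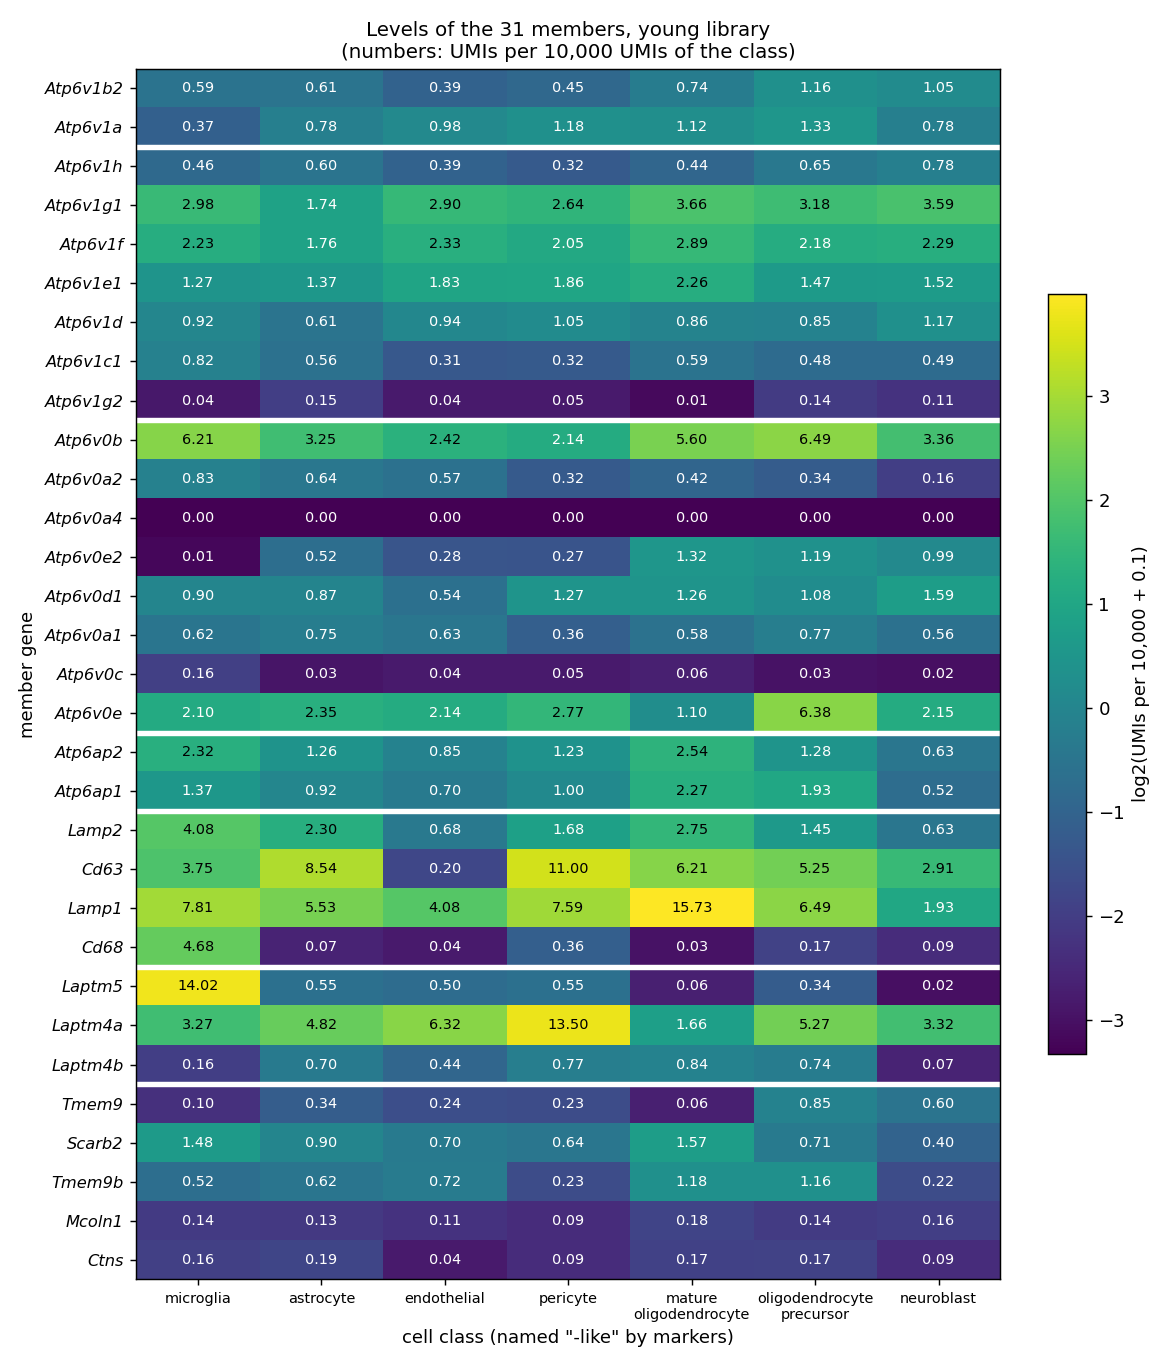
Level of the 31 members (rows, grouped by role) in 7 classes (columns) of the young library; numbers are UMIs per 10,000 and colour is log2 of the level plus 0.1. Laptm5 reaches 14.0 in the microglia-like class, Lamp1 15.7 in the mature oligodendrocyte-like class and Laptm4a 13.5 in the pericyte-like class.

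Both subunits of the catalytic head were present in all 7 classes. Atp6v1a (chromosome 16, 44085402 to 44139705, GRCm38, GENCODE M21), which encodes the A subunit that carries out ATP hydrolysis, had 1.33 UMIs per 10,000 in precursor-like, 1.18 in pericyte-like, 1.12 in mature oligodendrocyte-like, 0.981 in endothelial-like, 0.785 in astrocyte-like, 0.784 in neuroblast-like and 0.370 among microglia-like cells. It stood apart in the microglia-like class, where the interval of 0.303 to 0.447 did not reach that of any other class. Its level there was 0.359 times the mean of the others (0.283 to 0.452; log2 with the pseudocount −1.27), and Atp6v1a was the 1 V1 gene called in any class. Atp6v1b2, the B subunit that brain uses most, had 1.16 in precursor-like, 1.05 in neuroblast-like, 0.744 in mature oligodendrocyte-like, 0.608 in astrocyte-like, 0.594 in microglia-like, 0.454 in pericyte-like and 0.392 among endothelial-like cells. Its precursor-like level was 1.81 times the mean of the others (1.26 to 2.55; log2 0.77), short of the 2-fold call, and overlapped that of the neuroblast-like class.

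None of the 6 tested subunits of the rotor and stalks was called higher or lower in a class. Atp6v1g1 and Atp6v1e1, of the peripheral stalks, ranged from 1.74 to 3.66 and from 1.27 to 2.26 UMIs per 10,000, both highest in mature oligodendrocyte-like cells. Atp6v1f and Atp6v1d, of the rotor, ranged from 1.76 to 2.89 and from 0.608 to 1.17. Atp6v1f varied least of the V-ATPase members, with a log2 ratio of highest to lowest class of 0.69; 27.8% of the 31-base words at its 3' end also lie in a processed pseudogene, so its counts are uncertain. Atp6v1c1, a subunit that joins head and stalk, had 0.822 in microglia-like, 0.590 in mature oligodendrocyte-like, 0.564 in astrocyte-like, 0.493 in neuroblast-like, 0.482 in precursor-like, 0.318 in pericyte-like and 0.305 among endothelial-like cells. Its microglia-like level was 1.79 times the mean of the others (1.44 to 2.24; log2 0.72). Atp6v1h, which regulates the coupling of the sectors, had 0.784 in neuroblast-like, 0.652 in precursor-like, 0.597 in astrocyte-like, 0.460 in microglia-like, 0.435 in mature oligodendrocyte-like, 0.392 in endothelial-like and 0.318 among pericyte-like cells. The neuroblast-like level was 1.65 times the mean of the others (1.11 to 2.40; log2 0.62), with an interval that overlapped those of the next classes.

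Atp6v1g2, a G subunit known from neurons, was scarce in every class, with 39 UMIs in all. It had 14 UMIs in astrocyte-like, 11 in microglia-like, 5 each in precursor-like and neuroblast-like, 2 in endothelial-like, and 1 each in pericyte-like and mature oligodendrocyte-like cells. Per 10,000 UMIs this was 0.155 in the astrocyte-like class (0.0846 to 0.26), 0.142 in the precursor-like and 0.112 in the neuroblast-like class, and at most 0.0454 in the other 4. The upper 3 classes cannot be told apart at this depth.

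In the V0 sector 4 genes were called in a class: Atp6v0e, Atp6v0e2, Atp6v0b and Atp6v0a2. Atp6v0e encodes an e subunit, a short membrane protein of the sector whose part in the pump is not settled. It had 6.38 UMIs per 10,000 in precursor-like cells (225 UMIs; 5.57 to 7.27), 2.77 in pericyte-like, 2.35 in astrocyte-like, 2.15 in neuroblast-like, 2.14 in endothelial-like, 2.10 in microglia-like and 1.10 among mature oligodendrocyte-like cells. The precursor-like class stood clear of all the others, at 3.04 times their mean (6.38 against 2.10; 2.59 to 3.55; log2 1.56), and the mature oligodendrocyte-like class was lower, at 0.367 times (log2 −1.37). Of the 48 young precursor-like cells 9 were marked as doublets, and without them the log2 difference of Atp6v0e was 1.70. Markers of mature oligodendrocytes summed to 28.7 UMIs per 10,000 in the precursor-like class, against 639 in the mature class, with Mog and Aspa at 0.

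Atp6v0e2, the second e subunit, was arranged in another way. Its level was 1.32 in mature oligodendrocyte-like cells (94 UMIs; 1.07 to 1.62), 1.19 in precursor-like, 0.986 in neuroblast-like, 0.519 in astrocyte-like, 0.283 in endothelial-like, 0.273 in pericyte-like and 0.0104 among microglia-like cells. Only 3 UMIs were found in the 362 microglia-like cells, at 0.0136 times the mean of the others (0.00278 to 0.0403; log2 −2.97), and 0.829% of these cells had a UMI, against 72.2% of mature oligodendrocyte-like cells. Median depths were 7964.5 and 9609 UMIs. The mature oligodendrocyte-like level was 2.43 times the mean of the others (1.32 against 0.544; 1.84 to 3.19; log2 1.14, 0.94 with clusters at resolution 2 and 0.59 with a pseudocount of 1), and the intervals of the upper 3 classes overlapped. For Atp6v0e2, 14.5% of the words at the 3' end occur in other genes, so its counts are uncertain.

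Of the ring, Atp6v0b (the c'' subunit) was called lower in 1 class, the pericyte-like, at 2.14 UMIs per 10,000 against a mean of 4.55 over the others, and reached 6.49 in precursor-like cells. An antisense transcript covers 11.7% of its 3' words. Atp6v0c, the c subunit that makes up most of the ring, was nearly uncounted, with 58 UMIs, 46 of them in microglia-like cells. Its levels were 0.159 in microglia-like (0.116 to 0.212), 0.0562 in mature oligodendrocyte-like, 0.0454 in pericyte-like, 0.0436 in endothelial-like, 0.0332 in astrocyte-like, 0.0284 in precursor-like and 0.0224 among neuroblast-like cells. A processed pseudogene shares 29.6% of its 3' words, and its level is uncertain. Atp6v0d1, which ties ring to rotor, ranged from 0.545 in endothelial-like to 1.59 in neuroblast-like cells and was called in no class.

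The a subunits carry the proton path and direct the pump to its membranes. A further a subunit gene, Tcirg1, lies outside the rule, and it was called higher in microglia-like cells. Atp6v0a1, the form known from nerve endings, was even across classes, with 0.766 in precursor-like, 0.752 in astrocyte-like, 0.632 in endothelial-like, 0.622 in microglia-like, 0.576 in mature oligodendrocyte-like, 0.560 in neuroblast-like and 0.364 among pericyte-like cells. Atp6v0a2, known from the Golgi and early endosomes, was graded. It had 0.829 in microglia-like (0.728 to 0.941), 0.641 in astrocyte-like, 0.567 in endothelial-like, 0.421 in mature oligodendrocyte-like, 0.340 in precursor-like, 0.318 in pericyte-like and 0.157 among neuroblast-like cells. The neuroblast-like level was 0.302 times the mean of the others (0.12 to 0.635; log2 −1.27) and was called lower. Atp6v0a4, the form of kidney and inner ear, had 0 UMIs in all 7 classes.

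Both accessory genes were highest in mature oligodendrocyte-like cells. Atp6ap1 (Ac45) helps the pump assemble, and Atp6ap2, also known as the prorenin receptor, travels with V0. Atp6ap1 had 2.27 in mature oligodendrocyte-like, 1.93 in precursor-like, 1.37 in microglia-like, 1.00 in pericyte-like, 0.917 in astrocyte-like, 0.698 in endothelial-like and 0.515 among neuroblast-like cells. Its mature oligodendrocyte-like level was 2.12 times the mean of the others (2.27 against 1.07; 1.74 to 2.58; log2 1.02), a call that rests on the threshold: it was 0.97 with doublets removed and 0.60 with thinned cells. Atp6ap2 had 2.54 in mature oligodendrocyte-like, 2.32 in microglia-like, 1.28 in precursor-like, 1.26 in astrocyte-like, 1.23 in pericyte-like, 0.850 in endothelial-like and 0.627 among neuroblast-like cells. At 2.02 times the mean of the others before the pseudocount (2.54 against 1.26; log2 0.96 with it) it lay just outside the call. Both were called lower in neuroblast-like cells.

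Summed over the 19 genes within the rule, which leave out Tcirg1, the V-ATPase had 30.9 UMIs per 10,000 in precursor-like, 27.7 in mature oligodendrocyte-like, 24.2 in microglia-like, 21.8 in neuroblast-like, 19.3 in pericyte-like, 18.8 in astrocyte-like and 18.3 among endothelial-like cells. The precursor-like sum was 1.43 times the mean of the others (1.34 to 1.52), and the endothelial-like sum 0.769 times (0.715 to 0.826). Much of the precursor-like excess lay in Atp6v0e (6.38 against a mean of 2.10 in the others) and Atp6v0b (6.49 against 3.83). The median log2 ratio of the 16 tested V-ATPase members was 0.23 in precursor-like and 0.27 in mature oligodendrocyte-like cells. The sums of the lowest 3 classes had overlapping intervals. The sum of these genes thus ran from 18.3 to 30.9. A sum cannot span a wider ratio than its most variable gene, so the wider spans of Atp6v0e and Atp6v0e2 are not a finding about the pump.

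Among the glycoproteins, Lamp1 (chromosome 8, 13159161 to 13175338), a main protein of the lysosome's inner coat, had 15.7 UMIs per 10,000 in mature oligodendrocyte-like (14.8 to 16.7), 7.81 in microglia-like, 7.59 in pericyte-like, 6.49 in precursor-like, 5.53 in astrocyte-like, 4.08 in endothelial-like and 1.93 among neuroblast-like cells. The mature oligodendrocyte-like class stood above all others, at 2.82 times their mean (15.7 against 5.57; 2.61 to 3.05; log2 1.48), and the neuroblast-like class below all others, at 0.245 times (1.93 against 7.87; log2 −1.98). The neighbouring gene Grtp1 covers 15.6% of the 3' words of Lamp1. Lamp2, its relative, whose loss impairs autophagy in mice, had 4.08 in microglia-like (3.85 to 4.32), 2.75 in mature oligodendrocyte-like, 2.30 in astrocyte-like, 1.68 in pericyte-like, 1.45 in precursor-like, 0.676 in endothelial-like and 0.627 among neuroblast-like cells. Its highest class was thus another, the microglia-like, at 2.58 times the mean of the others (4.08 against 1.58; 2.31 to 2.89; log2 1.31, and 0.98 with a pseudocount of 1). The endothelial-like and neuroblast-like levels overlapped and were both called lower (log2 −1.53 and −1.63).

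Cd68, macrosialin, a LAMP relative used as a label of phagocytes, had 1354 UMIs in microglia-like, 8 in pericyte-like, 6 each in precursor-like and astrocyte-like, 4 in neuroblast-like, and 2 each in mature oligodendrocyte-like and endothelial-like cells. Per 10,000 this was 4.68 in microglia-like cells (4.43 to 4.93), against 0.364 in pericyte-like, 0.170 in precursor-like, 0.0896 in neuroblast-like, 0.0663 in astrocyte-like, 0.0436 in endothelial-like and 0.0281 among mature oligodendrocyte-like cells. The microglia-like level was 36.9 times the mean of the others (4.68 against 0.127; 24.4 to 58.5; log2 4.4, and 5.19 without doublets). In 2 classes the UMIs outside microglia-like cells sat in single cells: the 8 pericyte-like UMIs were in 1 cell and the 6 precursor-like UMIs in 1 cell. A UMI of Cd68 was found in 90.1% of microglia-like cells, against 1.47% to 6.90% of the other classes.

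Cd63, a tetraspanin of late endosomes and exosomes, is given in full although it was picked after its values were seen, because it was the member lowest in endothelial-like cells relative to the others. It had 11 UMIs per 10,000 in pericyte-like (9.66 to 12.5), 8.54 in astrocyte-like, 6.21 in mature oligodendrocyte-like, 5.25 in precursor-like, 3.75 in microglia-like, 2.91 in neuroblast-like and 0.196 among endothelial-like cells (0.0897 to 0.372). Endothelial-like cells had 9 UMIs and stood at 0.0313 times the mean of the others (0.196 against 6.28; log2 −4.43); 5.43% of them had a UMI, against 89.7% of pericyte-like cells, at median depths of 3237 and 3206. The pericyte-like level was 2.46 times the mean of the others (11 against 4.47; 2.14 to 2.81; log2 1.28). Astrocyte markers summed to 79.2 in the pericyte-like class, against 294 in the astrocyte-like class, with 12 of 14 counted and Aldh1l1 and Acsbg1 at 0; their part in the Cd63 level was not tested. A pseudogene shares 42.8% of the 3' words of Cd63, and its counts are uncertain in every class.

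The 3 LAPTM genes, small membrane proteins of late endosomes and lysosomes, differed in the class where they were highest. Laptm5 is known from blood-derived cells and lowers surface antigen receptors there. It had 4057 UMIs in microglia-like, 50 in astrocyte-like, 23 in endothelial-like, 12 each in pericyte-like and precursor-like, 4 in mature oligodendrocyte-like and 1 among neuroblast-like cells. The levels were 14.0 UMIs per 10,000 in microglia-like (13.6 to 14.5), against 0.553 in astrocyte-like, 0.545 in pericyte-like, 0.501 in endothelial-like, 0.340 in precursor-like, 0.0562 in mature oligodendrocyte-like and 0.0224 among neuroblast-like cells. The microglia-like level was 41.7 times the mean of the others (14.0 against 0.336; 33.3 to 52.9; log2 5.02, and 6.01 without doublets). Every microglia-like cell had a UMI (100%), against 1.72% of neuroblast-like cells, at median depths of 7964.5 and 8473.5; with each cell thinned to 2000 UMIs the microglia-like share was 93.3% and the others lay between 0% and 6.12%. Laptm5 was the 1 member among the 2000 most variable genes.

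Traces of Laptm5 and Cd68 outside the microglia-like class lay beside traces of microglia markers. The 15 markers summed to 483 UMIs per 10,000 in microglia-like cells, against 18.8 in pericyte-like, 16.2 in precursor-like, 13.7 in astrocyte-like, 12.2 in endothelial-like, 1.22 in mature oligodendrocyte-like and 0.829 among neuroblast-like cells. All 15 were detected in each class but the neuroblast-like, where Siglech, P2ry13 and Trem2 were at 0. The 2 classes with the lowest marker sums also had the lowest Laptm5. Cd68 was lowest in mature oligodendrocyte-like cells (0.0281), but its neuroblast-like level (0.0896) was above the endothelial-like (0.0436) and astrocyte-like (0.0663) ones, all on few UMIs. The part of microglia RNA in the levels above was not tested.

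Laptm4a, expressed in most tissues, had 13.5 UMIs per 10,000 in pericyte-like (12 to 15.1), 6.32 in endothelial-like, 5.27 in precursor-like, 4.82 in astrocyte-like, 3.32 in neuroblast-like, 3.27 in microglia-like and 1.66 among mature oligodendrocyte-like cells. The pericyte-like level was 3.28 times the mean of the others (13.5 against 4.11; 2.89 to 3.73; log2 1.69), and both vascular classes led the order. Mature oligodendrocyte-like cells, highest in Lamp1, were lowest in Laptm4a (log2 −1.82). Laptm4b, a close relative that also binds lipids and growth factor receptors in human cells, had 0.842 in mature oligodendrocyte-like, 0.773 in pericyte-like, 0.737 in precursor-like, 0.696 in astrocyte-like, 0.436 in endothelial-like, 0.155 in microglia-like and 0.0672 among neuroblast-like cells. The upper 4 classes overlapped, and the neuroblast-like (log2 −2.08) and microglia-like (log2 −1.44) levels were called lower. A pseudogene shares 11.6% of its 3' words.

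The remaining 5 membrane members are receptors, transporters and a channel. Scarb2 (LIMP-2), which carries glucocerebrosidase to the lysosome, had 1.57 in mature oligodendrocyte-like, 1.48 in microglia-like, 0.895 in astrocyte-like, 0.709 in precursor-like, 0.698 in endothelial-like, 0.636 in pericyte-like and 0.403 among neuroblast-like cells. The upper pair overlapped, at 1.96 and 1.81 times the mean of the others, and neither met the call. Tmem9, whose product binds ATP6AP2 in human cells, had 0.851 in precursor-like (0.574 to 1.21), 0.605 in neuroblast-like, 0.343 in astrocyte-like, 0.240 in endothelial-like, 0.227 in pericyte-like, 0.10 in microglia-like and 0.0562 among mature oligodendrocyte-like cells. The precursor-like level was 3.25 times the mean of the others (0.851 against 0.262; 2.05 to 5.04; log2 1.39, 1.64 without doublets and 0.55 with a pseudocount of 1), and overlapped that of the neuroblast-like class. Tmem9b, its paralog, had 1.18 in mature oligodendrocyte-like, 1.16 in precursor-like, 0.719 in endothelial-like, 0.619 in astrocyte-like, 0.522 in microglia-like, 0.227 in pericyte-like and 0.224 among neuroblast-like cells. Tmem9b was highest in both oligodendrocyte-lineage classes but met the call in neither (log2 0.91 in the mature and 0.89 in the precursor-like class), while Tmem9 was lowest in the mature one.

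Mcoln1, which encodes the calcium channel TRPML1 of the lysosome, varied least of the tested members on the log2 scale with the pseudocount, which is about the size of its levels; without it its highest class was 2.01 times its lowest, against 1.65 times for Atp6v1f. Its levels were 0.183 in mature oligodendrocyte-like, 0.157 among neuroblast-like, 0.142 in precursor-like, 0.138 in microglia-like, 0.133 in astrocyte-like, 0.109 in endothelial-like and 0.0909 among pericyte-like cells, and all 7 intervals overlapped. Ctns, which exports cystine, ranged from 0.0436 in endothelial-like to 0.188 in astrocyte-like cells, and was called in no class. At these depths differences of a few fold in Mcoln1 and Ctns were not detectable in the smaller classes.

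The 12 lysosomal membrane members summed to 40.2 UMIs per 10,000 in microglia-like, 36.7 in pericyte-like, 30.4 in mature oligodendrocyte-like, 24.7 in astrocyte-like, 22.7 in precursor-like, 14.1 in endothelial-like and 10.4 among neuroblast-like cells. Against the mean of the others this was 1.73 times (1.68 to 1.79) in microglia-like and 0.371 times (0.337 to 0.408) in neuroblast-like cells, a wider spread than that of the pump. The order rested on few genes. Without Cd63, Cd68 and Laptm5, the 9 others summed to 24.8 in pericyte-like, 24.1 in mature oligodendrocyte-like, 17.7 in microglia-like, 17.0 in precursor-like, 15.5 in astrocyte-like, 13.3 in endothelial-like and 7.42 among neuroblast-like cells. The microglia-like sum was then 1.04 times the mean of the others, and the neuroblast-like sum still the lowest, at 0.396 times (0.353 to 0.442). Neuroblast-like cells joined a V-ATPase sum of 0.937 times the mean of the others (0.876 to 1.00) with the lowest membrane sum.

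**Figure D3:**
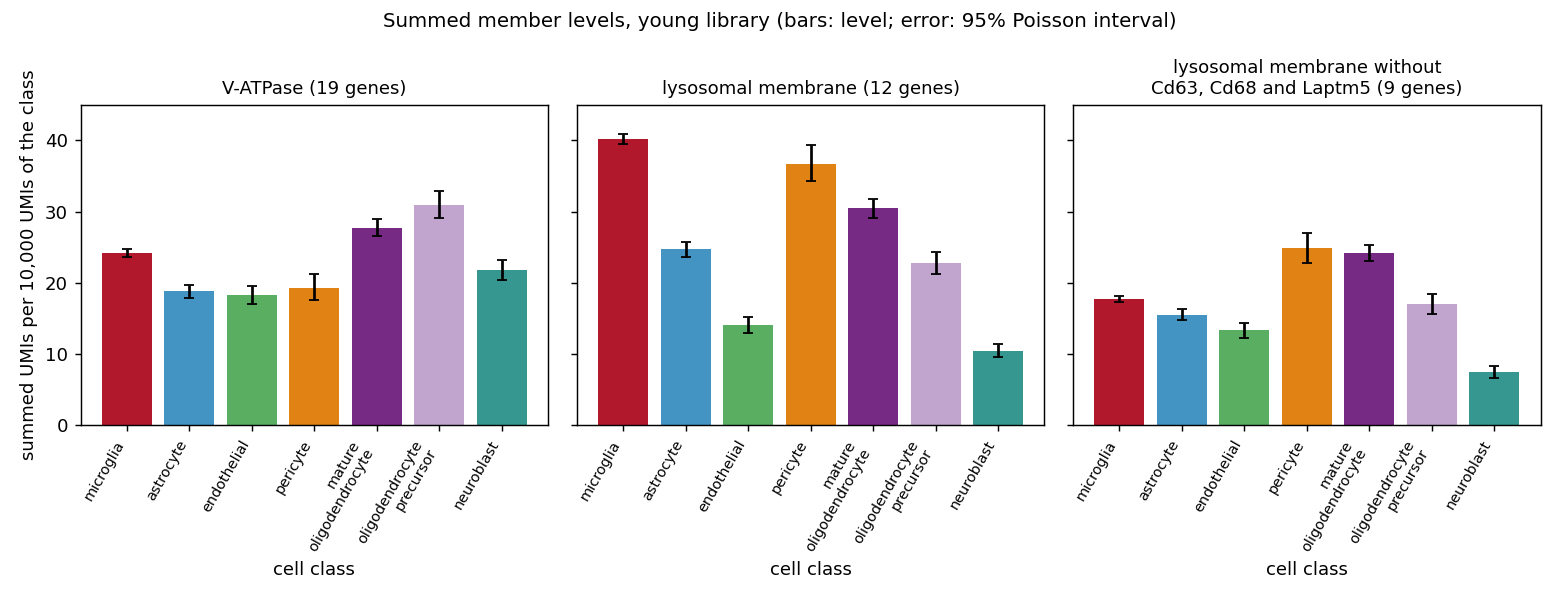
Summed level in UMIs per 10,000 (vertical axis, from 0) of the 19 V-ATPase genes, the 12 lysosomal membrane genes, and 9 of these without Cd63, Cd68 and Laptm5, in 7 classes of the young library; lines are 95% Poisson intervals. V-ATPase bars lie between 18.3 and 30.9, and membrane bars between 10.4 and 40.2.

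The smallest classes were too few for the comparison. The 10 young perivascular macrophage-like cells, which like microglia are phagocytes, had a V-ATPase sum of 35.1 and a membrane sum of 59.6 UMIs per 10,000, with 14.6 for Cd63, 14.0 for Lamp1, 11.1 for Cd68 and 6.55 for Laptm5. The 14 smooth muscle-like cells had sums of 18.8 and 17.3, and the 5 B cell-like cells 13.8 and 7.73.

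Several members come in pairs of related genes, and the balance within a pair differed between classes. Among e subunits, Atp6v0e2 gave 54.7% of the pair's UMIs in mature oligodendrocyte-like cells (46.9% to 62.2%), 31.4% in neuroblast-like, 18.1% in astrocyte-like, 15.7% in precursor-like, 11.7% in endothelial-like, 8.96% in pericyte-like and 0.491% among microglia-like cells (0.101% to 1.43%). The a subunit shares cover only the genes within the rule and leave out Tcirg1. Of these UMIs, Atp6v0a2 gave 57.1% in microglia-like, 47.3% in endothelial-like, 46.7% in pericyte-like, 46.0% in astrocyte-like, 42.3% in mature oligodendrocyte-like, 30.8% in precursor-like and 21.9% among neuroblast-like cells. The interval of the microglia-like share (52.3% to 61.9%) stood above those of the precursor-like (17.0% to 47.6%) and neuroblast-like (9.28% to 40.0%) classes and overlapped those of the other 4. The balance of Laptm4b against Laptm4a was 33.7% in mature oligodendrocyte-like cells, between 4.54% and 12.6% in 5 classes, and 1.99% among neuroblast-like cells.

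Tmem9 gave 73.0% of its pair's UMIs in neuroblast-like cells (55.9% to 86.2%, of 37 UMIs), 50.0% in pericyte-like (of 10 UMIs), 42.3% in precursor-like, 35.6% in astrocyte-like, 25% in endothelial-like, 16.1% in microglia-like and 4.55% among mature oligodendrocyte-like cells. Lamp2 gave 34.3% of the LAMP pair in microglia-like and 14.2% among endothelial-like cells, with the other classes between. Among G subunits Atp6v1g2 gave from 0.382% in mature oligodendrocyte-like to 8.19% in astrocyte-like cells. Pairs differ in 3' sharing as given above, so shares were set against each other between classes only.

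**Figure D4:**
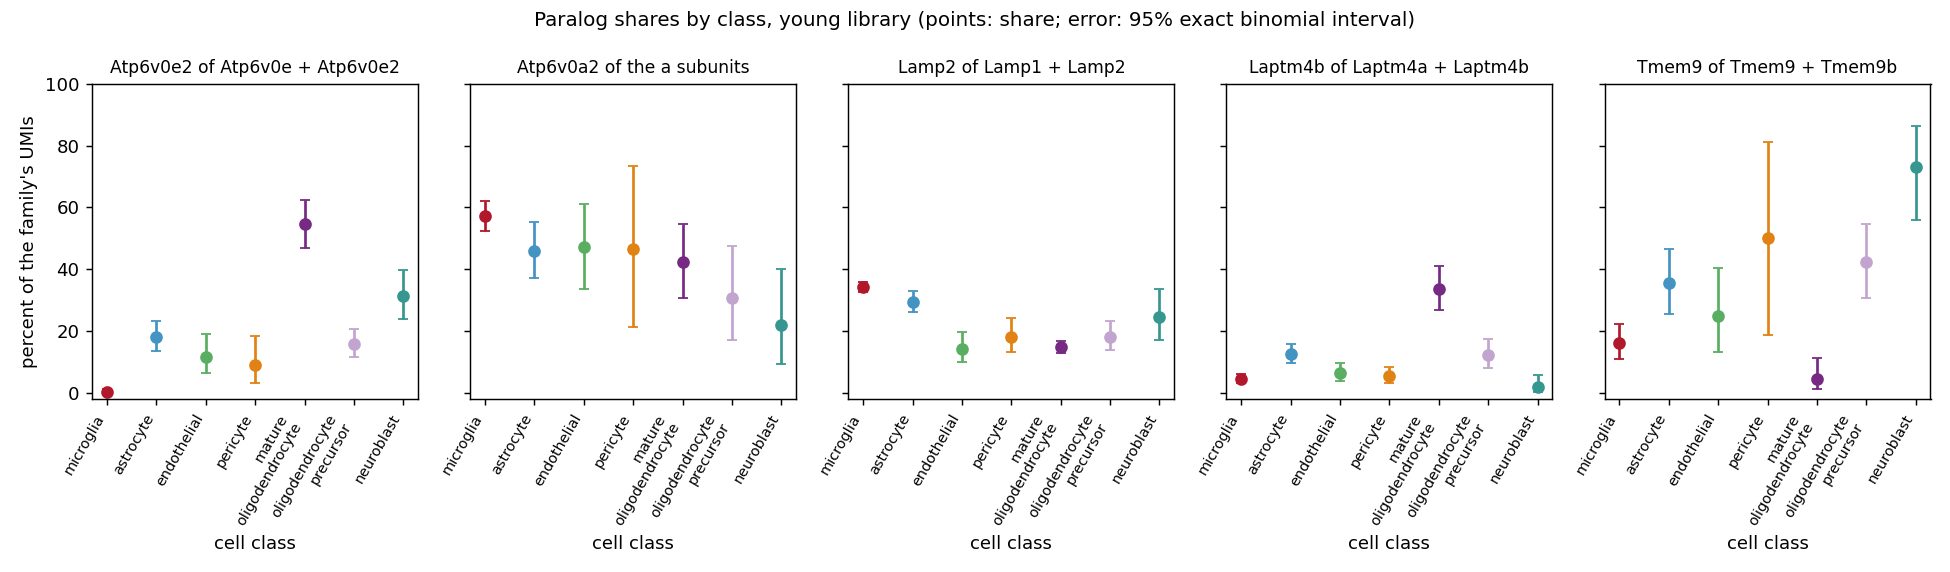
Share of a pair's UMIs that 1 paralog gives (vertical axis, percent) in 7 classes of the young library, 1 panel per pair, with 95% exact binomial intervals. Atp6v0e2 runs from 0.491% in microglia-like to 54.7% in mature oligodendrocyte-like cells, and Tmem9 from 4.55% in mature oligodendrocyte-like to 73.0% in neuroblast-like cells.

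Counted class by class, few of the 28 tested members were called higher, in shares near that of all genes; percentages in parentheses are the share of the 10231 genes called in that direction. Microglia-like cells had 3 higher (Laptm5, Cd68 and Lamp2; 8.12% of all genes) and 4 lower (Atp6v0e2, Laptm4b, Tmem9 and Atp6v1a; 31.4% of all genes). Mature oligodendrocyte-like cells had 3 higher (Lamp1, Atp6v0e2 and Atp6ap1; 6.47%) and 5 lower (Laptm5, Cd68, Laptm4a, Tmem9 and Atp6v0e; 29.1%). The counts of pericyte-like cells were 2 higher (Laptm4a and Cd63; 7.82%) and 5 lower (Laptm5, Tmem9b, Atp6v0e2, Atp6v0b and Cd68; 22.8%). In the precursor-like class 2 were higher (Atp6v0e and Tmem9; 9.59%) and 2 lower (Laptm5 and Cd68; 13.6%). Laptm5 and Cd68 were lower in each class but the microglia-like one, as their microglia-like levels enter the mean of the others.

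No member was called higher in the other 3 classes. Astrocyte-like cells had 0 higher (9.72% of all genes) and 2 lower (Cd68 and Laptm5; 18.7%), and endothelial-like cells 0 higher (8.55%) and 5 lower (Cd63, Cd68, Laptm5, Lamp2 and Atp6v0e2; 23.2%). Neuroblast-like cells had 0 higher (9.53%) and 10 lower (Laptm5, Cd68, Laptm4b, Lamp1, Lamp2, Tmem9b, Atp6v0a2, Atp6ap1, Atp6ap2 and Scarb2; 22.2%). The median log2 ratio of the 12 membrane members in neuroblast-like cells was −1.25 and that of the 16 V-ATPase members −0.09, beside −0.06 over all genes. In mature oligodendrocyte-like cells the members' median was 0.27, beside −0.47 over all genes, and in microglia-like cells 0.01, beside −0.55.

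From cell to cell, with each cell thinned to 2000 UMIs, the median count of V-ATPase UMIs was 5 in microglia-like, mature oligodendrocyte-like, precursor-like and neuroblast-like cells and 4 in the other classes. The median of membrane UMIs was 8 in microglia-like, 7 in pericyte-like, 6 in mature oligodendrocyte-like, 4 in astrocyte-like and precursor-like, and 2 in endothelial-like and neuroblast-like cells. No membrane UMI was left in 15.7% of neuroblast-like cells. Variance over mean, which counting alone sets at about 1, lay between 0.842 and 1.46 for the pump and reached 1.65 for the membrane genes in precursor-like and 1.56 among astrocyte-like cells. Thinning left out 157 of the 304 astrocyte-like cells, which were the shallowest class (median 1912 UMIs).

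The astrocyte-like class joined 2 clusters with unlike profiles. The smaller (24 young cells), led by Mt3, Aldoc, Mt1 and Hopx, had 4.01 UMIs per 10,000 of Atp6v1e1, 4.16 of Atp6v1f and 4.46 of Atp6v1g1, against 1.16, 1.56 and 1.52 in the larger (280 cells). It was lower in Atp6v0b (1.19, 0.513 to 2.34, against 3.41, 3.03 to 3.83) and Lamp2 (0.446, 0.0919 to 1.30, against 2.45, 2.12 to 2.81), on 8 and 3 UMIs in the smaller cluster. Its V-ATPase sum was 25.4 against 18.2, and its membrane sum 20.9 against 25. Median mitochondrial shares were 9.68% and 6.96%, and their part in these differences was not tested.

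Genes of the same organelle outside the rule were counted in the same way. Of 77 listed genes 72 were in the table and 61 were tested, 10 of pump assembly, 24 lysosomal transporters and channels, 11 other membrane proteins and 16 of gene control and nutrient sensing. Microglia-like cells had the most called higher, 10, with 3 lower (8.12% higher and 31.4% lower over all 10231 genes, as in the members' comparison). They included Slc15a3, a peptide and histidine transporter (2.0 against a mean of 0.0293 UMIs per 10,000 in the others; log2 4.02), Slc11a1, the metal transporter NRAMP1 of phagosomes (1.09 against 0.0141; 3.38), and Slc29a3, a nucleoside transporter (1.78 against 0.232; 2.50). The sialomucin gene Cd164 (3.33 against 0.644; 2.20) and the fusion gene Vamp8 (2.57 against 0.601; 1.93) were also among them. Of the transcription factors of the CLEAR motif, Tfe3 was higher in microglia-like cells (1.45 against 0.320; 1.89).

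Mature oligodendrocyte-like cells had 3 higher and 11 lower (6.47% and 29.1% over all genes). Tmem63a, an osmosensitive channel gene, had 2.01 against 0.261 (log2 2.54), Npc1, the cholesterol exporter, 2.09 against 0.685 (1.48), and Oxr1, of the family that binds V1, 1.22 against 0.536 (1.06). Precursor-like cells had 2 higher and 5 lower (9.59% and 13.6% over all genes), with Arl8a, of lysosome transport, at 2.27 against 0.998 (1.11) and Npc1 at 1.64 against 0.760 (1.02). In astrocyte-like cells 2 were higher and 4 lower (9.72% and 18.7%), with the channel gene Tpcn1 at 1.03 against 0.288 (1.54) and Sidt2 at 0.807 against 0.312 (1.14). Endothelial-like cells had 1 higher, Vamp8 (1.85 against 0.721; 1.25), and 10 lower (8.55% and 23.2%). Pericyte-like cells had 0 higher and 6 lower (7.82% and 22.8%). Neuroblast-like cells had 1 higher, Ncoa7, also of the V1-binding family (0.896 against 0.280; 1.39), and 13 lower (9.53% and 22.2%), and the median log2 ratio of the 61 genes there was −0.42, the lowest of the 7 classes.

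Levels in the old rows lay close to those in the young rows of the same barcodes. Over the 1016 barcodes with the same class in both libraries, the V-ATPase sum was 23.2 UMIs per 10,000 in old rows and 23.5 in young rows (0.989 times; 0.966 to 1.01), and the membrane sum 31.4 and 31.5 (0.996 times; 0.976 to 1.02). Of 30 members with at least 20 UMIs 0 differed 2-fold, beside 0.0826% of 13317 genes, and their log2 ratios lay between −0.08 and 0.11. Laptm5 in microglia-like cells had 13.9 in old and 14.0 in young rows, and Cd68 4.56 and 4.67. Lamp1 in mature oligodendrocyte-like cells had 15.3 and 15.8, Laptm4a in pericyte-like cells 13.5 and 13.6, and Atp6v0e in precursor-like cells 6.2 and 6.52. Within single classes, with 0.1 added to both levels, 0 members with 20 UMIs differed 2-fold, beside 0.172% of genes in microglia-like, 0.142% in astrocyte-like, 0.188% in endothelial-like, 0.22% in pericyte-like, 0.238% in mature oligodendrocyte-like, 0.231% in precursor-like and 0.217% among neuroblast-like cells. Their log2 ratios there ranged from −0.38 to 0.84, the highest being Cd63 in endothelial-like cells, with 22 old and 9 young UMIs, a ratio of 2.19 without the pseudocount (0.968 to 5.39).

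Low counts outside a gene's main classes differed more. Atp6v0e2 in microglia-like cells had 14 old and 3 young UMIs (4.18 times per 10,000; 1.17 to 22.7). Laptm5 had 20 old and 12 young UMIs in pericyte-like, 13 and 4 in mature oligodendrocyte-like and 7 and 1 among neuroblast-like cells. Microglia markers differed in the same direction: they summed to 4.15 in old and 1.21 in young rows of mature oligodendrocyte-like cells, and to 4.91 and 0.800 among neuroblast-like cells. In microglia-like cells they summed to 473 and 483. Their part in the traces was not tested.

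**Figure D5:**
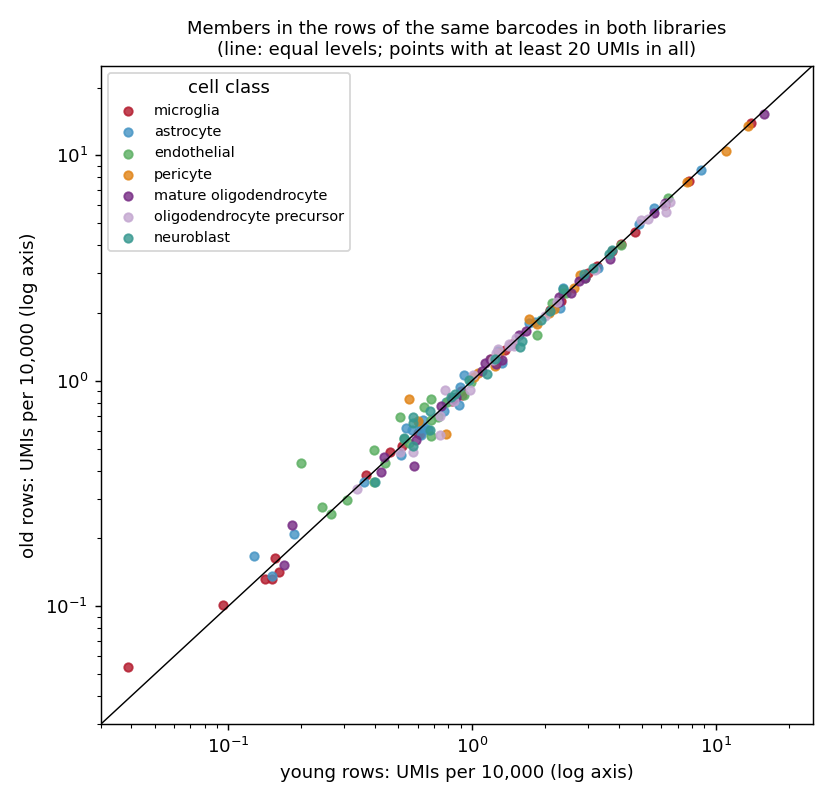
Level of each member in each class in old rows (vertical axis) against young rows (horizontal axis) of the same barcodes, in UMIs per 10,000 on log axes, for points with at least 20 UMIs in all; the line marks equal levels. Points follow the line, and the farthest from it is Cd63 in endothelial-like cells with 22 old and 9 young UMIs.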

How the data were processed

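The authors deposited 1 table of both libraries, with cells in rows, and its deposited values are natural logs, ln(1 + UMIs per 10,000 within a cell); this unit was read from the values. Per the submitters' processing notes, Cell Ranger 5.0.0 and mm10 were used. How cells were filtered and which gene annotation was used are not stated in the labels. Undoing the log and dividing by the value of 1 UMI gave whole counts for 100% of the deposited values (tolerance 0.01), and all sums use these counts.

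All cells of both libraries were clustered together, without integration, with scanpy 1.11.5 (Python 3.11.15, numpy 2.4.6, scipy 1.17.1, pandas 2.3.3, igraph 0.11.9): 2000 variable genes with the members left out, 30 principal components, 15 neighbours and Leiden resolution 1. A cluster took the name of the class with most markers met, where at least 3 were met. A marker was met with a UMI in 25% of the cluster's cells and 4 times the level of other brain cells. That class also needed at least as many markers among the cluster's 10 leading genes as any other class had. A cluster of low median depth with no marker among them took no name. Of 200 listed markers, of 22 classes, 197 were in the table. Clusters with a median mitochondrial share below 1% in both libraries were set aside. Doublets, marked by Scrublet within each library, were kept, and removing them was an alternative.

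Genes with a mean level of at least 0.1 over the 7 classes entered the comparison, with a pseudocount of 0.1 and a 2-fold call, and the background is the same rule over all such genes. Intervals are exact Poisson for levels, exact conditional for ratios and Clopper-Pearson for shares; they cover counting error only. Code was tested on simulated data. Figures were drawn with matplotlib 3.10.9.

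The members, markers and related genes were chosen with earlier results of these data known. Full values are given for up to 3 members of each role group with the largest difference between their highest class and the mean of the others, for both members of a pair whose share differs by 20 percentage points or whose leading gene changes, and for the member that varies least on that scale. Of related genes, those called higher are named, up to 5 a class, and Tfe3 and Tcirg1 were named in addition after their values were seen. Sharing of 3' ends was measured as the percent of 31-base words of the last part of a gene's transcripts that occur in another gene of GENCODE M21. Alternatives changed the clustering, doublets, normalization, filter, pseudocount, fold and library.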

Additional observations from a re-analysis of the deposited data

Results flagged for a closer look

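Signals of the members were also found in cells outside the 7 classes, in the clusters with a median mitochondrial share below 1%. The V-ATPase sum was 10.4 UMIs per 10,000 in these cells of the old library and 11.4 in those of the young library (11094 UMIs), below the lowest of the 7 classes (18.3). The lysosomal membrane sum was 2.20 in old and 1.22 in young cells (1189 UMIs), also below the lowest class (10.4). Both stand above the limit of 3 UMIs that a count of 0 allows.

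Atp6v0b, the c'' subunit of the ring, had 4.51 UMIs per 10,000 in old and 5.82 in young low-mitochondrial cells, within the range of the classes (2.14 to 6.49). Atp6ap2, at 1.62 in old and 1.69 in young cells, was within their range too. Atp6v1d, of the rotor, was the 1 tested member above all classes, at 1.70 in old and 1.36 in young cells. By contrast, Lamp1 had 0.166 in old and 0.0482 in young cells. Of the 28 tested members 23 (82.1%) were below the lowest class in the young library, beside 43.1% of all genes, and 6 (21.4%) were far below it, at 0.1 times or less, beside 16.1% of all genes. Atp6v0a4, with 0 UMIs in the classes, had 12 UMIs in these young cells (0.0123 UMIs per 10,000).

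The 7 low-mitochondrial clusters agreed in the membrane sum, which ranged from 0.970 to 1.62, more than in the V-ATPase sum, which ranged from 7.04 to 19.2, or in Atp6v0b, from 2.90 to 10.6. These cells were given no cell type, and what they are was not tested.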

How the results depend on the processing

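For single genes, the alternatives were compared for each tested member in its highest class only, so calls of lower levels were not rerun. No call of a higher level changed direction there. Values near an even ratio did cross it: the V-ATPase sum of neuroblast-like cells (0.937 times the mean of the others) was 1.03 as a mean over cells and 1.002 with mitochondrial, hemoglobin and ribosomal UMIs left out of the total, the membrane sum of astrocyte-like cells (0.958 times) was 1.07 at resolution 2, the share of Atp6v0a2 in pericyte-like cells was 58.8% in old rows and 46.7% in young rows, and 4 old over young ratios in pericyte-like or precursor-like cells, all close to even, also did. Of these alternative values for single genes in their highest class, called or not, 289 kept their side of the 2-fold call, 6 newly met it and 8 lost it. For the summed levels of the V-ATPase 61 of the values moved by less than counting error and 1 by more, for the lysosomal membrane 52 and 17, for paralog shares 159 and 3, and for old over young 28 and 0. Of the counts of members called, 88 were equal to the main count or within 1.5-fold of it, and 16 were not. Atp6ap1 in mature oligodendrocyte-like cells lost its call in 4 settings, with log2 0.97 without doublets, 0.98 as a mean over cells, 0.60 with thinned cells and 0.66 with a pseudocount of 1. Atp6v0e2 lost its call in mature oligodendrocyte-like cells at resolution 2 (0.94), where no cluster was named microglia-like and the mean of the others lacked that class. It also lost it with a pseudocount of 1 (0.59), which ended those of Lamp2 in microglia-like (0.98) and Tmem9 in precursor-like cells (0.55). The cause was not tested.

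The membrane sum over the mean of the other classes was 1.82 in microglia-like and 1.30 among pericyte-like cells at resolution 0.5. At resolution 2 no cluster was named microglia-like, which left 6 classes: 1.07 in astrocyte-like, 0.564 in endothelial-like, 1.77 in pericyte-like, 1.41 in mature oligodendrocyte-like, 0.981 in precursor-like and 0.419 among neuroblast-like cells. As a mean over cells it was 1.87 in microglia-like and 0.825 among astrocyte-like cells, and the V-ATPase sum 1.03 in neuroblast-like cells. With cells thinned to 2000 UMIs it was 1.79 in microglia-like, 0.804 in precursor-like and 0.329 among neuroblast-like cells. Without Cd63, a setting chosen after seeing the data, it was 2.08 in microglia-like, 0.773 in astrocyte-like, 0.652 in endothelial-like and 1.33 among pericyte-like cells.

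Counts of members called higher were 4 in pericyte-like cells at resolution 2, 1 in astrocyte-like and 1 among neuroblast-like cells as a mean over cells, and 4 among precursor-like cells in rows of the old library. They were 1 in mature oligodendrocyte-like and 1 among precursor-like cells with a pseudocount of 1, 5 in mature oligodendrocyte-like cells with one of 0.01, and 1 among precursor-like cells with the filter at 0.5. At 1.5-fold they were 8 in microglia-like, 1 in astrocyte-like, 8 in mature oligodendrocyte-like, 7 in precursor-like and 5 among neuroblast-like cells, and at 3-fold 1 in pericyte-like, 0 in mature oligodendrocyte-like and 0 among precursor-like cells. A lower threshold counts more by construction. The share of all genes called was not computed under these alternatives, so the counts do not set the members apart from other genes. The share of Atp6v1g2 in its pair was 0.671% in neuroblast-like cells at resolution 2 and 0.0% in old pericyte-like rows, and that of Atp6v0e2 2.09% in old microglia-like rows. At resolution 2 a cluster of 9 young cells was named Cajal-Retzius-like, with Reln, Trp73 and Ndnf among its markers. The neuroblast-like class then had 49 young cells, against 58 at resolution 1. Leaving out 10 young neuroblast-like cells with Reln, Trp73 or Ndnf was also chosen after seeing the data. It moved no summed level past counting error, no count of members beyond 1.5-fold and no compared gene across the 2-fold call.

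No paired analysis was possible because each age has 1 library. Depth limits Atp6v1g2, Atp6v0c, Mcoln1 and Ctns most, and the precursor-like and neuroblast-like classes have the fewest cells.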
